A study of Mus musculus with 6 samples.

Results

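Keratin-high cells with little Hopx were selected from neoplastic cells that had been sorted from mouse lung tumours and profiled one by one by droplet RNA sequencing. Their members were the cells with at least 500 detected genes, at most 20% mitochondrial transcripts and at least 1 TdTomato transcript in which Krt8 and Krt18 together made up at least 50 of every 10000 transcripts and Hopx fewer than 4. Transcripts were counted as unique molecular identifiers (UMIs), tags that let PCR copies of 1 molecule be counted once. The rule was met by 784 of the 16017 cells, or 6.48% of the 12092 tdTomato cells (exact binomial 95% interval 6.05 to 6.94). They were set against the 10910 tdTomato cells under the keratin minimum, called keratin-low here, and against the 398 keratin-high cells with Hopx at 4 or more, called Hopx-raised.

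Alveolar type II (ATII) cells make surfactant and serve as progenitors of the flat alveolar type I (ATI) cells that exchange gas. When the alveolus repairs an injury, ATII cells pass through an intermediate in which the simple epithelial keratins Krt8, Krt18 and Krt19 and the claudin Cldn4 are raised, surfactant genes are reduced and ATI genes such as Hopx and Ager are not yet fully on. A related keratin-rich state with the collagen receptor subunit Itga2 is known in mouse lung tumours, where it is regarded as plastic.

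All mice carried Lkb1XTR/XTR and Rosa26LSL-tdTomato, so that lentiviral Cre delivered to the airways turned on tdTomato and trapped Lkb1 (symbol Stk11) in the cells it reached. The XTR trap ends the Lkb1 transcript in a GFP sequence, and FLPo-ERT2, a recombinase that needs tamoxifen, removes it. Tumours had grown for 20 weeks and treatment lasted 2 weeks, with tamoxifen given in doses of 4 mg. The labels place 6 mice in 2 cohorts, with 3 Restored mice that had FLPo-ERT2 and tamoxifen and 3 NonRestored mice. Of the NonRestored mice, 1 received tamoxifen but had no FLPo-ERT2, and of the 2 given vehicle 1 had FLPo-ERT2. The tumours were microdissected, and cells stained for CD45, CD31, F4/80 or Ter119 or with DAPI were removed by the sort.

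The matrix pooled the libraries, and no file read here linked a cell to its mouse. It was therefore treated as 1 sample, the comparison of Restored with NonRestored mice was not analysed here, no test was run, and every interval below covers counting error only. Members had a median of 26723 UMIs (671 to 115470) and 5198.5 genes, keratin-low cells 19033 UMIs and 4104 genes, and Hopx-raised cells 18334 UMIs and 4518 genes. The median mitochondrial share was 2.06% in the members, 3.93% in keratin-low cells and 1.77% in Hopx-raised cells. A TdTomato UMI did little to separate cell types, since 390 of 447 cells under the keratin minimum with at least 10 UMIs of a fibroblast, endothelial or immune marker list also had one. At least 3 UMIs of the fibroblast list were found in 11 members (1.40%), of the endothelial list in 4 (0.510%) and of the immune list in 0, against 295 (2.70%), 239 (2.19%) and 79 (0.724%) keratin-low cells.

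The values that chose the members are given as a description only. Krt8 plus Krt18 ranged from 50 to 851 per 10000 UMIs in the members with a median of 79.5, against medians of 9.58 in keratin-low and 71.0 in Hopx-raised cells. Hopx had a median of 0.667 per 10000 in the members and was at 0 UMIs in 245 of them (31.3%), and the Hopx-raised cells had a median of 9.61. In the 46 members under 2500 UMIs a single Hopx UMI would have crossed the border. Just inside the keratin border, the 85 cells from 50 to 55 had 230.3 CPM of Cldn4 (UMIs per 1000000 UMIs summed over the cells) and 174 CPM of Itga2, and just outside, the 95 cells from 45 to 50 had 242 and 76.3 CPM. At the Hopx border, the 70 cells from 3 to 4 had 379.6 CPM of Cldn4 and 105 CPM of Itga2, and the 49 cells from 4 to 5 had 338 and 29.9 CPM. Neither border falls in a gap between separate groups of cells, as the map of keratin against Hopx shows.

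**Figure D1:**
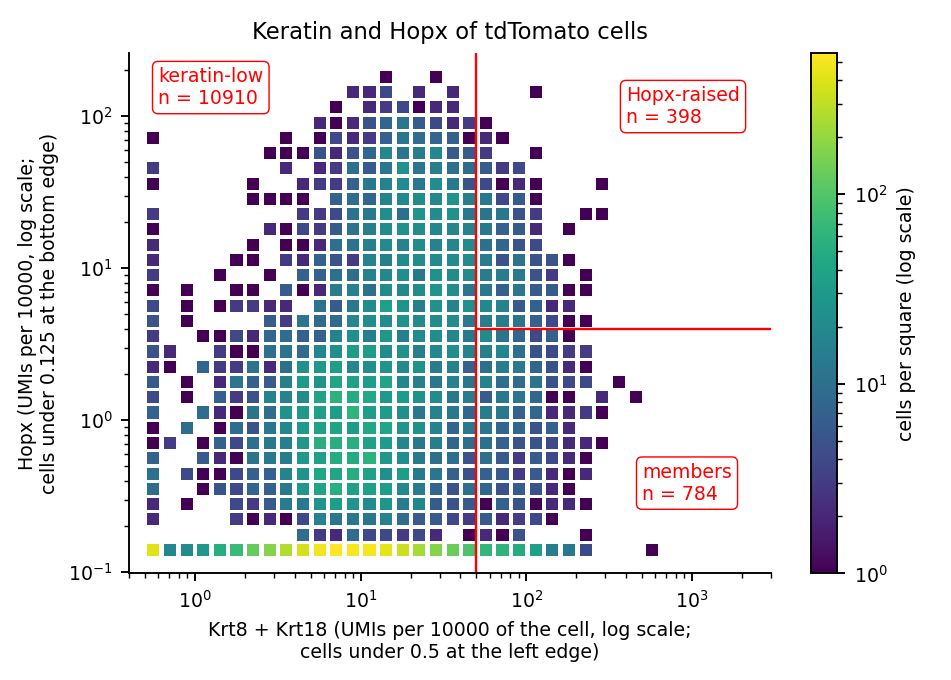
Cells by Krt8 plus Krt18 (horizontal, UMIs per 10000 of the cell) and Hopx (vertical, same unit), both on log scales, with colour for the number of cells per square and red lines for the borders of the rule. The 784 members lie at the lower right, and the density runs across both borders without a break.

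Of the 5 genes given as markers of these cells, Krt19, Cldn4, Itga2, Procr and Sprr1a, all 5 lay more than 2-fold above keratin-low cells. Itga2, Procr and Sprr1a reached 20 CPM in the members and not in keratin-low cells. The 5 markers were chosen with earlier results of these data known, so their count describes the members and tests nothing. In GRCm38 with GENCODE M21, their genes lie at chr11:100140810-100148665 (Krt19), chr5:134945119-134946934 (Cldn4), chr13:114833081-114932100 (Itga2) and chr3:92483952-92485895 (Sprr1a), all on the minus strand, and chr2:155751117-155755471 (Procr) on the plus strand. Krt19, a simple keratin not used by the rule, had 1951 CPM in the members, 258 CPM in keratin-low cells and 1840.5 CPM in Hopx-raised cells. Over single members it ran from 0 to 102 per 10000 UMIs with a median of 15.7, and the medians of keratin-low and Hopx-raised cells were 1.35 and 14.5. Krt19 was thus 7.55-fold (7.46 to 7.65) higher than in keratin-low cells and 1.06-fold (1.04 to 1.08) higher than in Hopx-raised cells, so it followed the keratin part of the rule and hardly differed with Hopx.

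Cldn4, a claudin of the tight junction, had 481 CPM in the members (95% Poisson interval 472 to 490.0), 20.7 CPM in keratin-low cells and 284 CPM in Hopx-raised cells. Its single-cell values ran from 0 to 37.5 per 10000 with a median of 2.87, against medians of 0 in keratin-low and 1.73 in Hopx-raised cells. The ranges of the 3 groups overlap because each includes cells at 0. With exact 95% intervals of the ratio in parentheses, as elsewhere, the member level was 23.2-fold (22.4 to 24.0) that of keratin-low cells and 1.69-fold (1.62 to 1.77) that of Hopx-raised cells.

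Itga2, the collagen-binding integrin alpha 2 subunit, was higher in the members than in both other groups. It stood at 266 CPM in the members, 6.35 CPM in keratin-low cells and 16.3 CPM in Hopx-raised cells, which made it 41.9-fold (39.6 to 44.5) and 16.3-fold (13.8 to 19.6) higher. The member median was 0, the upper quartile 2.86 and the highest cell 39.1 per 10000, and 373 of the 784 members had an Itga2 UMI. Procr, the endothelial protein C receptor, had 531 CPM in the members and was 28.6-fold (27.6 to 29.7) higher than in keratin-low cells and 2.55-fold (2.42 to 2.68) higher than in Hopx-raised cells. Sprr1a, a small proline-rich protein of cornified epithelia, had 391 CPM and was 21.0-fold (20.2 to 21.8) and 2.23-fold (2.11 to 2.36) higher, with a median of 0 and a highest cell of 130.5 per 10000. Of its member UMIs 70.5% lay in 40 cells, the highest 5%, and 87.5% of those of Hopx-raised cells in 20, and without these cells the levels were 125 and 23.8 CPM.

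To compare how many cells had a UMI at equal depth, each cell was thinned at random to 5000 UMIs, which left out 63 members, 943 keratin-low and 30 Hopx-raised cells. Of the 721 members kept, 404 (56.0%) had a UMI of at least 3 of the 5 markers, against 1.75% of 9967 keratin-low cells, 32.6% of 368 Hopx-raised cells and 0 of 352 fibroblast, endothelial or immune marker cells. All 5 markers were seen in 45 members, 6 keratin-low cells and 0 Hopx-raised cells. Cldn4 had a UMI in 66.4% (62.9 to 69.9) of thinned members, 58.1% (52.9 to 63.2) of Hopx-raised cells and 6.39% (5.92 to 6.89) of keratin-low cells, with 0.568% in the marker cells of other types. For Itga2 the shares were 32.9% (29.4 to 36.4), 2.99% (1.50 to 5.29) and 1.43% (1.20 to 1.68), and the last 2 were below the 4.83% of the other cell types, so these shares alone were not read as expression. Of the 22 cells of other types without a TdTomato UMI, the set planned for this comparison, 0 had an Itga2 UMI (interval 0 to 15.4%). The summed level of Itga2 in Hopx-raised and keratin-low cells nevertheless differed over the bins of keratin and Hopx described further on. Before thinning, 82.4% of members had a Cldn4 UMI, 47.6% an Itga2 UMI, 73.1% a Procr UMI and 36.0% a Sprr1a UMI. The deep cells had median depths of 28477 UMIs in the members, 20447 in keratin-low, 19334 in Hopx-raised and 19438 in the other cell types.

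The upstream sequences of the markers are shown because Fosl1, a subunit of the transcription factor AP-1, was over 2-fold higher in the members than in keratin-low cells, and AP-1 binds the letters TGANTCA. Of 9 genes looked up in the RefSeq promoter table (GRCm38.p6), 7 had an entry, and Krt19 and Fosl1 had none. The 250 bases before the annotated start are printed 5′ to 3′ on the strand of the gene, in lower case with matches in capitals. Searched on both strands were TGANTCA, whose reverse complement has the same form, GGAATG of the TEAD factors, and TATAAA, and no matches overlapped. Over all 32851 promoters, TGANTCA was present in the same 250 bases of 6.75%, GGAATG in 12.6% and TATAAA in 12.4%. Cldn4 held TGANTCA at 240 and 158 bases before its start, Procr at 154, Sprr1a at 146 and 116 and F3 at 146 and 135, each distance counted to the first base of the match, and Sprr1a also held TATAAA at 43. These genes were chosen and are no sample of the genes that were higher. A share over all genes more than 2-fold higher would be void, since 424 of 578, under 80%, had an entry. Itga2, Sfn and Pthlh held none of the 3 motifs in these windows, and Itga2 is printed for contrast with Cldn4, Sprr1a and F3.
Cldn4 (GRCm38.p6, chr5:134946935-134947184, minus strand): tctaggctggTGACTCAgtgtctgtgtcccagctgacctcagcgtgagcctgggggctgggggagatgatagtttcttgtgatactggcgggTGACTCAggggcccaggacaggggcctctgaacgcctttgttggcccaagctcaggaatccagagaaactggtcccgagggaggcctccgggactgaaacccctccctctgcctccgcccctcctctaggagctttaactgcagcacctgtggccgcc
Sprr1a (GRCm38.p6, chr3:92485882-92486131, minus strand): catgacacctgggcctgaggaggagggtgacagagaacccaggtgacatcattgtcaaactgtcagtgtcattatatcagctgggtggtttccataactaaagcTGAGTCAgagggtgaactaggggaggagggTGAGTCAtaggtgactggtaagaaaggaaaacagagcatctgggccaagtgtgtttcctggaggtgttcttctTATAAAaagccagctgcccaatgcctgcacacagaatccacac
F3 (GRCm38.p6, chr3:121723287-121723536, plus strand): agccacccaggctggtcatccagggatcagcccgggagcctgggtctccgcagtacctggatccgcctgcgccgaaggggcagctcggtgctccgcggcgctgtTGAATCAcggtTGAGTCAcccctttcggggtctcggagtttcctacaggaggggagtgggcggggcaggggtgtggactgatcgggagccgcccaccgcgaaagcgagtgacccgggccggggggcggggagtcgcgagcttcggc
Itga2 (GRCm38.p6, chr13:114932101-114932350, minus strand): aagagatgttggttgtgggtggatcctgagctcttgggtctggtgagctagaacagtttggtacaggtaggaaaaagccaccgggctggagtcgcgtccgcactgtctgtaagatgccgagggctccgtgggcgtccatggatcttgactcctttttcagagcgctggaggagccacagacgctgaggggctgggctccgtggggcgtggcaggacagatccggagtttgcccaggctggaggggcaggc

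Marker levels were also above 0 below the keratin border and differed over bins of keratin. Among tdTomato cells with Hopx under 4, Cldn4 stood at 1.36 CPM in cells with keratin under 5 per 10000, 8.93 CPM from 10 to 20, 84.4 CPM from 30 to 40, 273 CPM from 50 to 60 and 705 CPM at 120 or more. Itga2 over the same bins was at 2.50, 3.42, 30.8, 156 and 319 CPM, and F3, the tissue factor that starts coagulation, at 19.0, 47.2, 162, 381 and 2300.2 CPM. Each was higher in every bin from 10 to 20 up to 80 to 120, and Itga2 levelled off in the 2 highest bins. The ATII genes ran the other way over the same bins. Sftpc, surfactant protein C, went from 138133 CPM at 10 to 20 to 34316 CPM at 50 to 60 and 6116 CPM at 120 or more, and Slc34a2, a phosphate transporter of ATII cells, from 2499 to 476 and 34.6 CPM. The ATI gene Ager peaked below the border, with 1438 CPM at 30 to 40 and 969.6 CPM at 120 or more. The bins share 1 pool of libraries and had median depths between 16717.5 and 29590.0 UMIs.

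**Figure D2:**
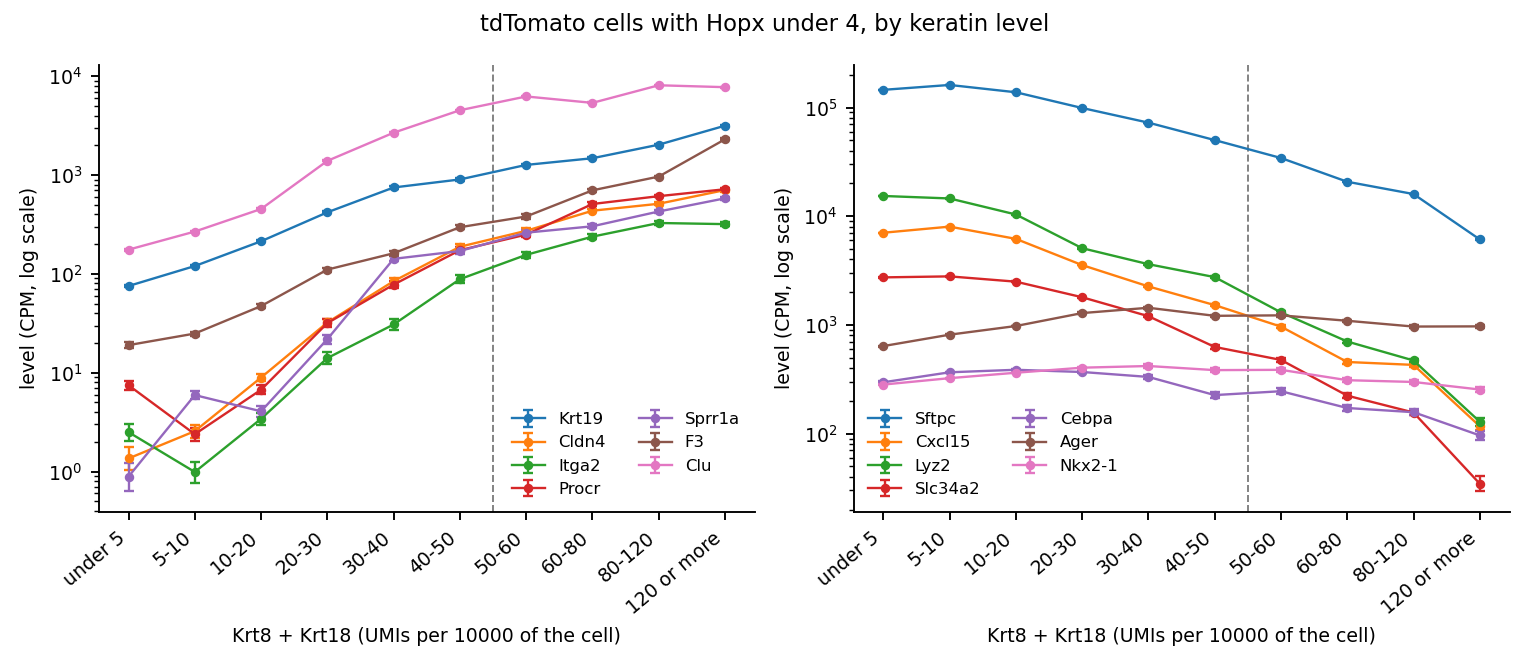
Levels (CPM, log scale) over bins of Krt8 plus Krt18 in tdTomato cells with Hopx under 4, with 95% Poisson intervals; the dashed line is the border of the rule. Transitional genes on the left climb through the border, with Cldn4 at 8.93 CPM at keratin 10 to 20 and 705 CPM at 120 or more, while Sftpc, Cxcl15, Lyz2 and Slc34a2 on the right descend.

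Over the whole transcriptome, 6338 genes outside the rule reached 20 CPM in the members or in keratin-low cells, and 578 of them (9.12%) lay more than 2-fold higher and 318 (5.02%) more than 2-fold lower in the members, with 1 CPM added to both levels. The median gene was itself 0.28 higher on the log2 scale, and Sftpc alone took 1.91% of the members' UMIs against 12.9% of those of keratin-low cells. Relative to that median, 338 genes (5.33%) were higher and 429 (6.77%) lower, so higher genes outnumbered lower ones on the first scale and not on the second. Since all of these genes were measured in the cells that the rule selected, the counts describe the members. A gene entered if either group reached 20 CPM, and 237 of the 578 higher genes were under 20 CPM in keratin-low cells and 179 of the 318 lower genes under it in the members. With 20 CPM required in both groups, a setting added after seeing the data, 341 were higher and 139 lower. List counts below are on the first scale, and the count relative to the median gene is given where it differs.

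Genes of the injury-induced alveolar intermediate were mostly higher. Without Krt8, 17 genes of that list were compared and 12 lay over 2-fold higher and 0 lower on both scales, with a median log2 ratio of 2.61 against 0.28 over all genes. The markers Krt19, Cldn4 and Sprr1a are among the 12 and are thus counted again here. Clu, a secreted chaperone, had 6917 CPM in the members and 755 CPM in keratin-low cells (9.16-fold higher, 9.10 to 9.22), with single-cell medians of 34.4 and 1.84 per 10000. Sfn, the epithelial 14-3-3 sigma protein, was 9.97-fold (9.77 to 10.2) higher. Ndrg1, a gene induced by hypoxia and stress, was 12.1-fold (11.5 to 12.7) higher, and Tnip3, an inhibitor of NF-kappaB signalling, 19.2-fold (17.5 to 21.0) higher. The 5 genes within 2-fold were Cdkn1a, Nupr1, Csrp1, Cdkn2a and Cdkn2b, of which the cell cycle inhibitors Cdkn1a, Cdkn2a and Cdkn2b were at 523, 75.9 and 81.9 CPM against 359, 55.6 and 54.6 CPM. Of 12 genes listed for the plastic tumour state, 9 were compared and 7 were over 2-fold higher, among them Lif, a cytokine of the interleukin 6 family, at 19.2-fold (17.9 to 20.7), while Kng2, a kininogen, was 5.18-fold (4.83 to 5.57) lower. Of the 7, 3 reached 20 CPM in both groups, and Itga2, Plaur, Tm4sf1 and Lif in the members only. The markers Itga2 and Cldn4 are among the 7.

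Integrin and actin genes were mostly higher. All 7 integrin genes compared were over 2-fold higher, 6 of them relative to the median gene, including Itgb4 at 10.2-fold (8.99 to 11.7), Itgb6 at 4.61-fold (4.39 to 4.84) and Itga3 at 3.88-fold (3.69 to 4.07). Integrin alpha 6 beta 4 is the laminin receptor of hemidesmosomes. Of 12 basement membrane genes compared 2 were over 2-fold higher, among them the laminin chain gene Lama3 at 6.47-fold (6.11 to 6.85), and Lamb3 was at 206 against 137 CPM. Of 18 actin cytoskeleton genes, 15 were over 2-fold higher and 12 relative to the median gene. They included the tropomyosin Tpm2, at 336 against 22.3 CPM (15.1-fold higher, 14.5 to 15.6), the PDZ-LIM protein Pdlim7 (11.1-fold, 10.3 to 12.0) and the actin-bundling protein Palld (10.2-fold, 9.54 to 10.9). Among 11 tight junction genes 5 were over 2-fold higher, or 3 relative to the median gene, and Cldn7 was next to Cldn4 among the claudins of the list at 2.66-fold (2.61 to 2.70). Among 8 cornified envelope and desmosome genes 5 were over 2-fold higher, with Ecm1 at 6.23-fold (5.89 to 6.59) and the desmosomal plaque protein Pkp3 at 3.41-fold (3.20 to 3.64). Of the 5, 2 reached 20 CPM in both groups, and Sprr1a, Pkp3 and Ecm1 in the members only. A further 11 of that list, among them Ivl and the near-identical Sprr2a copies, were under 20 CPM in both groups.

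Genes of coagulation and plasmin activation formed a further group, with 8 of 11 genes compared over 2-fold higher, or 7 with 1 lower relative to the median gene. Of the 8, Plaur, Plat, Serpinb2, Procr and F2rl1 reached 20 CPM in the members and not in keratin-low cells, and F3, Anxa2 and S100a10 in both groups. F3 had 1041 CPM in the members and 62.0 CPM in keratin-low cells (16.8-fold higher, 16.4 to 17.1), with single-cell medians of 4.55 and 0 per 10000 and UMIs in 80.7% and 19.6% of thinned cells, against 10.5% of the fibroblast, endothelial and immune marker cells. Plaur, the urokinase receptor, was 11.7-fold (11.2 to 12.2) higher and Anxa2 and S100a10, which together form a plasminogen receptor, were 4.88-fold (4.83 to 4.94) and 6.15-fold (6.05 to 6.25) higher. The protease inhibitor gene Serpine2 was at 138 CPM against 229.5 CPM.

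Ligands of the EGF receptor were mostly higher. Of 7 genes of the family compared, 5, all of them ligands, were over 2-fold higher, or 4 relative to the median gene, with Areg at 3777 against 944 CPM (4.00-fold, 3.97 to 4.04), Ereg at 3.56-fold (3.47 to 3.66) and Hbegf at 2.61-fold (2.55 to 2.68). The receptor genes Erbb2 and Erbb3 were 1.19 and 1.62 times the keratin-low level, and Egfr was under 20 CPM in both. Among 13 genes that report MAPK signalling, 7 were over 2-fold higher and 1 lower, or 4 and 1 relative to the median gene. Dusp6, a phosphatase of ERK, was 2.48-fold (2.41 to 2.55) higher and Epha2 3.34-fold (3.21 to 3.48), and Etv5 was 3.59-fold (3.33 to 3.88) lower. Fosl1 was 13.0-fold (11.7 to 14.5) higher at 37.0 CPM, and it was the single gene of 12 AP-1 and immediate early genes over 2-fold higher, while Zfp36 was 2.39-fold (2.32 to 2.47) lower and, relative to the median gene, Fosb as well, at 789.7 against 1411 CPM. Fos, Jun and Egr1 stood at 2271, 1846 and 485 CPM against 2769, 2542 and 779 CPM.

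Among 18 glycolysis and hypoxia genes 12 were over 2-fold higher, or 6 relative to the median gene, and 0 lower. Slc16a3, a lactate exporter, was 8.11-fold (7.22 to 9.10) higher, Eno1 3.57-fold (3.48 to 3.66), Pkm 3.23-fold (3.17 to 3.28) and the glucose transporter Slc2a1 2.94-fold (2.76 to 3.13). Of 16 p53 target genes 5 were over 2-fold higher, or 4 with 1 lower relative to the median gene, with Tnfrsf10b at 3.43-fold (3.17 to 3.71) and Plk2 at 2.84-fold (2.73 to 2.94), and Mdm2 was at 74.4 against 48.0 CPM. Of 11 YAP and TEAD target genes 4 were over 2-fold higher, or 2 relative to the median gene, and of 10 TGF-beta genes 2, or 1. Of 8 antioxidant genes of the Nrf2 programme 4 were over 2-fold higher, or 2, with the glutathione peroxidase Gpx2 at 7.50-fold (7.16 to 7.85), and of 10 NF-kappaB genes 3 were higher and 0 lower, or 3 and 2, among them Relb at 2.75-fold (2.57 to 2.95). Among 7 genes of stomach and gut epithelium 4 were higher and 1 lower, but of the 4 only Gkn2 reached 20 CPM in both groups. Psca, a cell surface antigen, was at 135 against 17.5 CPM. For Gkn2, Tff1 and Anxa10, 40 members held 82.4%, 100% and 100% of the UMIs.

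**Figure D3:**
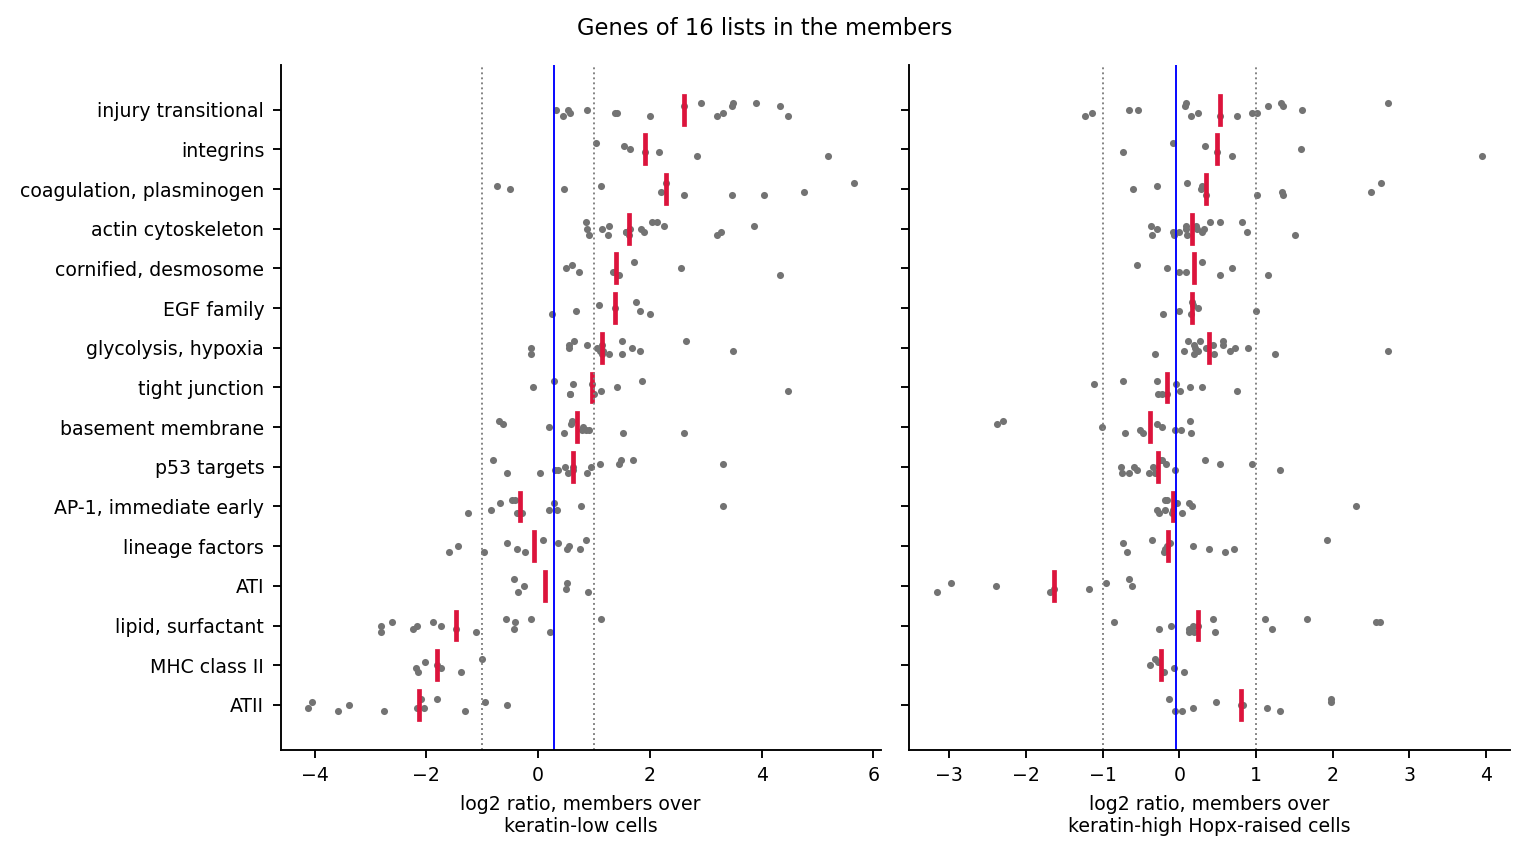
Log2 ratio of the members' level to that of keratin-low cells (left) and Hopx-raised cells (right) for each gene of 16 lists (grey points), with the list median in red, the median of all genes compared in blue and dotted lines at 2-fold. Against keratin-low cells the injury transitional list has a median of 2.61 and the ATII list -2.13, and against Hopx-raised cells the ATI list has a median of -1.64.

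Most ATII markers were lower. Of 12 compared, 10 lay more than 2-fold lower than in keratin-low cells, or 11 relative to the median gene, with a median log2 ratio of -2.13. Sftpc had 19070.4 CPM in the members and 129479 CPM in keratin-low cells (6.79-fold lower, 6.77 to 6.81), and the single-cell medians were 36.9 and 1257 per 10000. Lyz2, lysozyme, was 16.6-fold (16.3 to 16.9) lower, Hc, complement C5, 18.2-fold (16.6 to 20.1), Cxcl15, a lung chemokine, 12.0-fold (11.7 to 12.2) and Slc34a2 10.4-fold (10.1 to 10.7). Surfactant proteins B and D, Sftpb and Sftpd, were within 2-fold, at 7220.0 and 2242 CPM against 10610.3 and 4331 CPM. Genes of lipid and surfactant synthesis were lower too, with 9 of 15 over 2-fold lower, such as the fatty acid synthase Fasn (7.11-fold, 6.76 to 7.49), the desaturase Scd1 (7.07-fold, 6.93 to 7.22) and Lpcat1, which makes surfactant phospholipid (4.73-fold, 4.57 to 4.89). The squalene epoxidase gene Sqle was higher (2.25-fold, 2.08 to 2.43), though not by 2-fold relative to the median gene.

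Of 7 genes for MHC class II, which ATII cells also make, 6 were over 2-fold lower, or 7 relative to the median gene, with Cd74 at 2062 against 5343 CPM and the class II activator Ciita at 5.52-fold (4.43 to 6.95) lower. Of the 6 class I genes compared 0 passed 2-fold. Among 12 lineage transcription factors 0 were higher and 2 were over 2-fold lower, Cebpd (2.70-fold, 2.59 to 2.83) and Id2 (3.04-fold, 2.88 to 3.22), or 3 relative to the median gene. Cebpa, which promotes ATII differentiation, was at 167 CPM against 328 CPM (1.96-fold lower, 1.90 to 2.03), and Nkx2-1, the lung identity factor, at 311 against 367 CPM.

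Genes of basal, mesenchymal and ciliated cells were mostly under 20 CPM. Of 6 basal and squamous genes 0 reached 20 CPM, Krt5, Krt6a, Trp63 and Dsg3 had 0 UMIs in the members, and Krt15 was at 1.16 CPM. Of 8 epithelial adhesion genes compared 1 was over 2-fold higher, Epcam at 2.92-fold (2.88 to 2.96), and 7 were within 2-fold. Of 12 mesenchymal genes 3 were compared, with a median log2 ratio of 0.53, which was 2.32 once cells with 3 or more fibroblast, endothelial or immune UMIs were left out. Fn1, fibronectin, was 3.42-fold (3.35 to 3.50) higher, Vim, which stromal cells also make, was 2.91-fold (2.70 to 3.13) lower, and Zeb1, Snai1 and Twist1 were at 1.73, 0.756 and 0 CPM. The single ciliated marker compared, Tppp3, was 4.43-fold (4.28 to 4.59) higher, and Foxj1, which switches on the ciliated programme, was at 0.400 CPM.

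The genes with the lowest ratios were mostly genes of other cell types. The 15 lowest were Scgb1a1, Mgp, Chil3, Dcn, Eln, Apoe, Col3a1, Col1a2, Ccl6, Ibsp, Cxcl14, Fmo2, Sparcl1, Ctss and Mfap5, which include collagens and other matrix genes, genes of macrophages and the club cell secretoglobin Scgb1a1 (4.98 against 745 CPM). Of the Scgb1a1 UMIs of keratin-low cells 97.9% lay in 546 cells, and without the highest 5% of each group the levels were 1.45 and 16.5 CPM. Once cells with 3 or more UMIs of the fibroblast, endothelial and immune lists were left out, 22 members and 681 keratin-low cells, 13 of the 15 were under 20 CPM in both groups, and Scgb1a1 and Apoe stayed over 2-fold lower. The lowest after that, chosen after the values were seen, were Scgb1a1, Bex2, the complement gene C6, Lyz1 and Hc, with 29.4-fold (24.8 to 35.3) for Bex2 and 37.9-fold (26.2 to 57.0) for Lyz1.

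Against Hopx-raised cells, 6367 genes outside the rule were compared, and 149 (2.34%) were over 2-fold higher and 137 (2.15%) over 2-fold lower, and the median gene was at -0.04 on the log2 scale. With 20 CPM required in both groups, 64 were higher and 77 lower. Of 11 ATI genes other than Hopx 9 were compared and 6 were over 2-fold lower. Ager, Clic5 and Akap5 of these reached 20 CPM in both groups, and Cav1, Rtkn2 and Spock2 in Hopx-raised cells only. Ager, the receptor for advanced glycation end products and a defining ATI gene, had 1054 CPM in the members and 3401 CPM in Hopx-raised cells (3.23-fold lower, 3.17 to 3.28), with single-cell values from 0 to 107 per 10000 and a median of 9.20 against 0 to 244 and 35.1. Akap5, an anchor of protein kinase A, was 5.33-fold (4.99 to 5.70) lower, Rtkn2 9.94-fold (7.66 to 13.0), Spock2, an extracellular proteoglycan, 13.0-fold (9.37 to 18.5) and Clic5, a chloride channel family member, 3.12-fold (2.99 to 3.26). Emp2 and Aqp5, an ATI water channel, were at 915 and 1481 CPM against 1768 and 2269 CPM. Against keratin-low cells 0 of 6 ATI genes compared passed 2-fold. The other 5 were under 20 CPM in both groups, with log2 ratios of -1.99 for Pdpn, -1.87 for Igfbp2, -1.80 for Rtkn2, -1.21 for Spock2 and 0.54 for Cav1. Against the 8939 keratin-low cells with Hopx under 4, a set chosen after seeing the data, 3 of the 6 were over 2-fold higher in the members, Clic5, Akap5 and Emp2, where 11.5% of all genes were. Ager was at 1352 CPM in all keratin-low cells and 893 CPM in those with Hopx under 4, so its level in the members lay below the first and above the second.

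Of 12 basement membrane genes compared 3 were over 2-fold lower than in Hopx-raised cells, 0 higher and 9 within 2-fold, with a median log2 ratio of -0.38. Relative to the median gene 2 were over 2-fold lower. Col4a3 and Col4a4, collagens of the alveolar basement membrane, were 5.34-fold (4.86 to 5.87) and 5.05-fold (4.63 to 5.52) lower, and the laminin chain gene Lamb2 was the other. The remaining genes among the 10 lowest were Galnt18, Ifit3, Sema3a, Scnn1g, Fam189a2 and Tmod1, and Scnn1g, a subunit of the epithelial sodium channel, was 7.78-fold (6.14 to 9.92) lower. Cell cycle inhibitors Cdkn2a and Cdkn2b were 2.36-fold (2.20 to 2.54) and 2.21-fold (2.06 to 2.37) lower, and Cdkn1a was at 523 against 822 CPM. Of 17 injury transitional genes 6 were over 2-fold higher than in Hopx-raised cells and these 2 lower, with Ndrg1 at 6.86-fold (5.89 to 8.02) and Plaur at 2.56-fold (2.36 to 2.78). Fosl1 was 5.50-fold (4.18 to 7.36) higher, F3 2.01-fold (1.95 to 2.08), Lif 6.30-fold (5.26 to 7.61) and Sox9, a factor of distal lung progenitors, 4.29-fold (3.16 to 5.96) at 23.6 CPM.

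The members had more ATII transcripts than Hopx-raised cells for some genes and not for others. Of 11 ATII markers 4 were over 2-fold higher and 0 lower, with a median of 0.81, namely Lamp3 (4.01-fold, 3.56 to 4.52), Lyz2 (3.95-fold, 3.74 to 4.19), Cxcl15 (2.50-fold, 2.37 to 2.63) and Sftpa1 (2.22-fold, 2.18 to 2.26). Of the Lyz2 UMIs 88.8% lay in 40 members and 71.0% of those of Hopx-raised cells in 20, the highest 5% of each group. Without them, a setting added after seeing the data, the levels were 76.4 and 51.3 CPM, and 28.9% of thinned members and 28.5% of thinned Hopx-raised cells had a UMI. Both shares lay below the 44.3% of the fibroblast, endothelial and immune marker cells. That set includes immune cells, so it cannot set a background level for lysozyme, and these shares alone were not read as expression. Trimmed in the same way in both groups, Cxcl15 was at 216 against 73.8 CPM, Lamp3 at 112 against 17.0 CPM and Sftpa1 at 2694 against 951 CPM. Sftpc was at 19070.4 CPM against 19759 CPM. Of 15 genes of lipid and surfactant synthesis 5 were over 2-fold higher and 0 lower. The fatty acid binding protein Fabp5 was 6.23-fold (5.65 to 6.89) higher, with trimmed levels of 94.6 and 4.41 CPM, and the chitinase-like Chil1 6.01-fold (5.38 to 6.73), with 96.1 and 11.3 CPM. Of 18 actin genes 1 was over 2-fold higher, Palld at 2.90-fold (2.53 to 3.33).

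Over bins of Hopx within the keratin-high cells, Krt19 stayed between 1551 and 2114 CPM. Itga2 went from 365 CPM in cells without a Hopx UMI to 199 CPM at 1 to 2 per 10000, 31.4 CPM at 4 to 8 and 0.990 CPM at 16 or more. Ly6a, a cell surface protein known from stem cell work and named after its values were seen, went from 479 to 394, 135 and 8.41 CPM over the same bins. Cldn4 varied less, at 361, 549.6, 343 and 204 CPM. Ager took the opposite course, with 731, 1286, 2402 and 4928 CPM, as did Akap5 with 13.2, 100.5, 176 and 496 CPM. Sftpc showed no such course, between 14379 and 22899 CPM over all 7 bins. The bin without a Hopx UMI had a median depth of 20267 UMIs and the next one 33050.

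**Figure D4:**
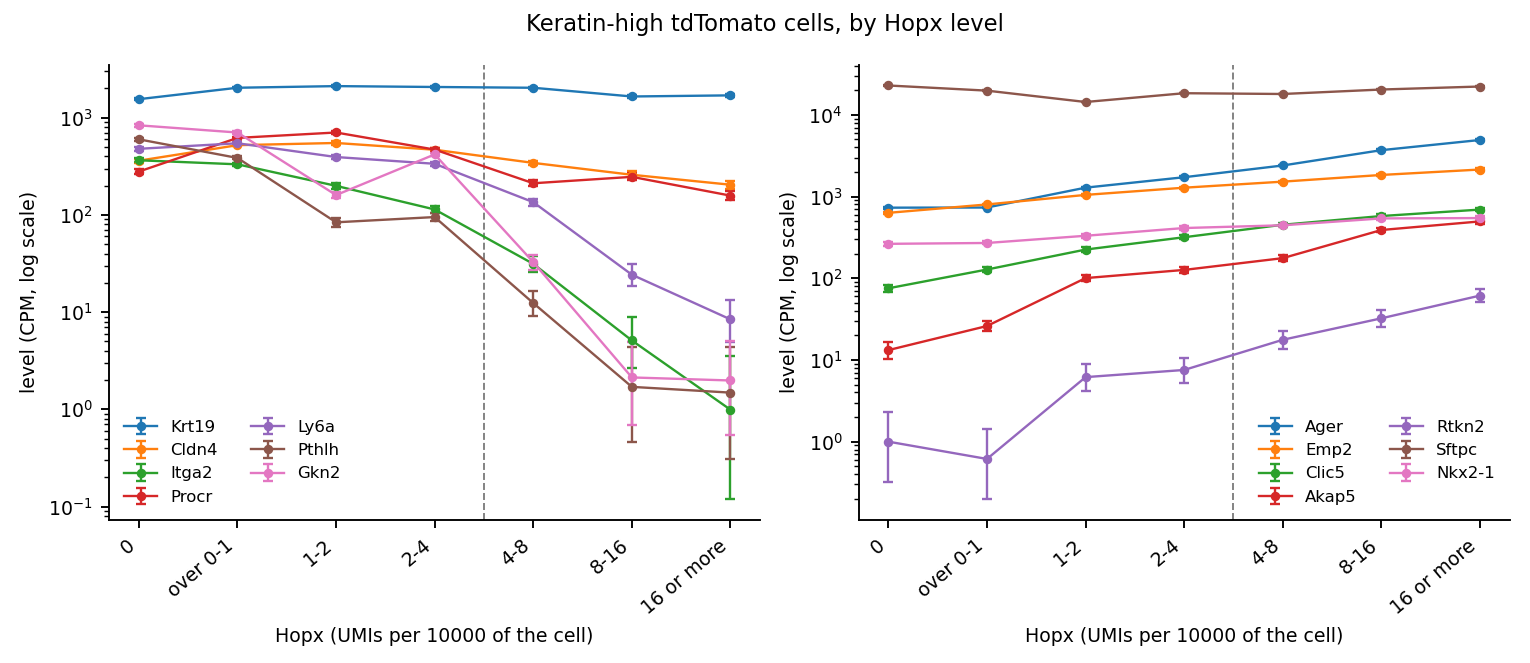
Levels (CPM, log scale) over bins of Hopx in keratin-high tdTomato cells, with 95% Poisson intervals; the dashed line is the border of the rule at 4 per 10000. Itga2 runs from 365 to 0.990 CPM while Krt19 is nearly level, and Ager runs from 731 to 4928 CPM.

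Many of the largest ratios were carried by few cells. Of the 15 genes with the largest ratio to keratin-low cells, 9 had 50% of their member UMIs in at most 20 of the 784 cells. These 15 were Tff1, Serpinb2, Itga2, Aldh1a3, Il24, Procr, Mcpt8, Gzme, Pthlh, Cldn4, Klra4, Sprr1a, Trbc2, Anxa10 and F3. Tff1, a trefoil peptide of the stomach, had 91.9 CPM against 0.115 CPM, but its 2067 UMIs were found in 16 members and 50% of them in 3. Serpinb2, an inhibitor of plasminogen activators, was at 50.8 against 0.0354 CPM with 50% of its UMIs in 4 cells, and without the 5% of members (40 cells) with the most UMIs of it the level was 1.28 CPM. For Aldh1a3, which makes retinoic acid, 50% lay in 7 cells, and the level without its top 40 cells was 6.47 CPM. By the same measure 50% of the UMIs lay in 97 cells for Cldn4, 70 for F3 and 152 for Krt19, and without the top 40 cells Cldn4 was still at 386 CPM, F3 at 726 CPM and Krt19 at 1726 CPM.

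Pthlh, Gzme, Gkn2 and Mcpt8 were each seen in a minority of members. Pthlh, parathyroid hormone-related protein, had 310.0 CPM in the members, 12.4 CPM in keratin-low and 6.61 CPM in Hopx-raised cells, with a UMI in 27.5% (24.2 to 30.9) of thinned members, 3.17% of keratin-low cells and 2.56% of the marker cells of other types. Gkn2, a gastrokine of the stomach lining, had 561, 37.6 and 16.3 CPM and a UMI in 18.4% (15.7 to 21.5) of thinned members. Gzme, granzyme E, had 394, 14.0 and 2.57 CPM and a UMI in 15.3% (12.7 to 18.1) of thinned members, with 50% of its UMIs in 14 cells. Mcpt8, a mast cell protease gene, had 56.7, 1.19 and 0.245 CPM, with 50% of its UMIs in 6 members and a level of 4.20 CPM without the top 40. Gzme, Mcpt8, Klra4 and the T cell receptor constant gene Trbc2 are known from blood cells, and granzymes, mast cell proteases and Klra genes form families of near-identical copies between which reads may be split. The 8 genes of the immune list together had 12 UMIs in the members (0.178 CPM for Ptprc, which encodes CD45, and 0 UMIs for Cd3e), and 0 members had 3 or more of them. Against Hopx-raised cells Gzme was 153-fold (100.1 to 247), Pthlh 46.9-fold (35.9 to 62.5) and Gkn2 34.4-fold (29.0 to 41.1) higher, Tff1 at least 250-fold higher, since it had 0 UMIs there and a limit of 3 counts over the group was used (exact lower limit of the ratio 203), and Mcpt8, with 2 UMIs there, had a ratio of 232 with an interval from 64.0 to 1914.5. The other genes among the 10 largest in that comparison were Ube2c, Spp1, Dlk1, Igfbp4 and Vcam1, of which Spp1 had 50% of its UMIs in 2 cells and Igfbp4 and Vcam1 in 4 each.

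**Figure D5:**
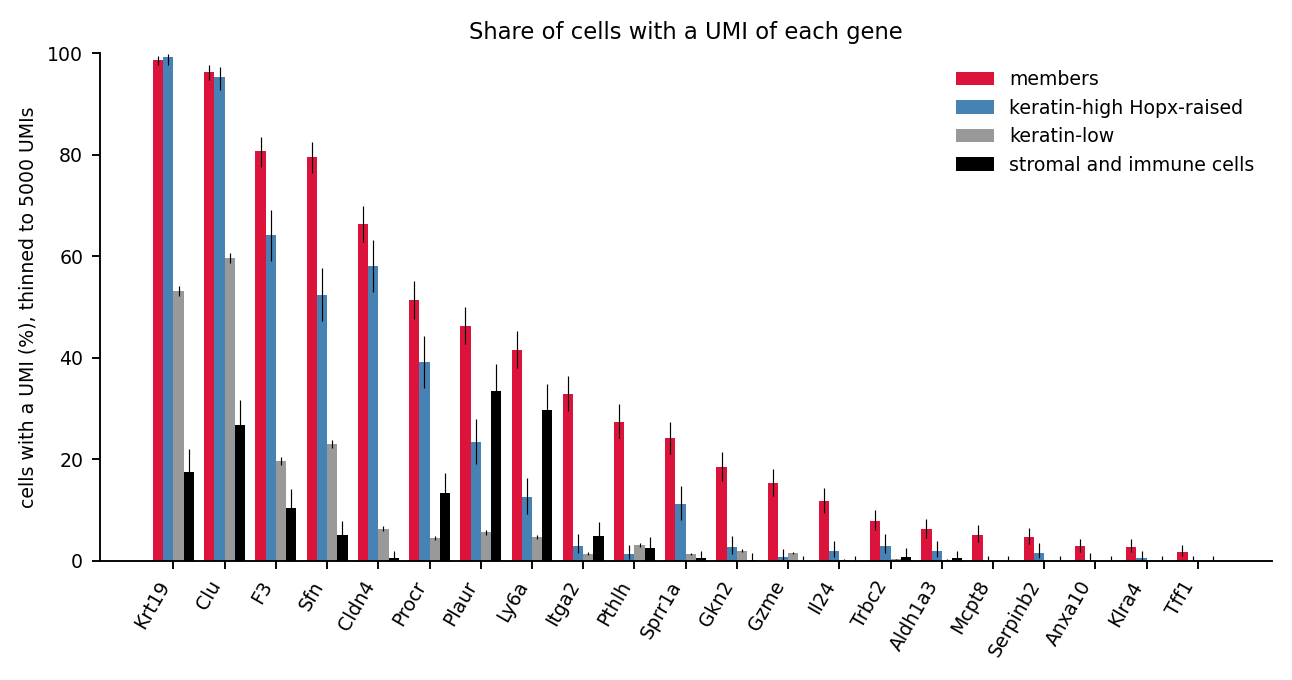
Share of cells with a UMI of each gene after thinning to 5000 UMIs, in 721 members, 368 Hopx-raised, 9967 keratin-low and 352 fibroblast, endothelial or immune marker cells, with exact binomial 95% intervals. Krt19 was seen in 98.8% of members, Itga2 in 32.9% and Tff1 in 1.80%.

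Correlations within the members were computed for 20 pairs, chosen after values were seen. Over the 721 deeper members, Itga2 had a Spearman correlation of 0.62 with Ly6a (0.50 after thinning), 0.54 with Lif (0.39) and 0.48 with Cldn4 (0.33), and -0.54 with Ager (-0.42). Gzme had a correlation of 0.56 with Mcpt8 (0.44), 0.46 with Pthlh (0.40) and 0.42 with Gkn2 (0.41), and of 0.00 with Cldn4. F3 with Plaur had 0.55 (0.38), Cldn4 with Procr 0.51 (0.32) and Aldh1a3 with Klra4 0.50 (0.49). Of the 37 thinned members with an Mcpt8 UMI 29 also had one of Gzme, where the product of both shares over all 721 gives 5.65. These values describe cells that share a pool of libraries and, before thinning, differ in depth, and members from 1 tumour cannot be recognised.

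Surfactant transcripts varied widely among the members. Sftpc ran from 1.25 to 1851 per 10000 UMIs over members, with quartiles of 7.86 and 233. The fibroblast, endothelial and immune marker cells, which do not make surfactant, had a median of 9.62, and the 57 of them without a TdTomato UMI a median of 23.4 (quartiles 13.2 and 41.6), which overlap the levels of the 244 members under 10 and the 127 from 10 to 30. The 164 members at 300 or more held 2923 CPM of Lyz2 against 38.8 CPM in the 244. Across 5 bins of Sftpc from under 10 to 300 or more, Cldn4 went from 753 to 317 and 191 CPM (first, middle and last bin), Itga2 from 443 to 197 and 48.4 CPM and Clu from 10195 to 5447 and 2632 CPM. Krt19 was within 1313 and 2165 CPM, and Cebpa went from 91.4 to 279 CPM. The Spearman correlation of Sftpc with Cldn4 was -0.54 (-0.45 after thinning) and with Itga2 -0.50 (-0.39).

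The trapped and restored forms of Lkb1 leave different transcripts, GFP and Stk11. GFP was at 49.3 CPM in the members (46.4 to 52.3), 23.7 CPM in keratin-low cells and 58.5 CPM in Hopx-raised cells, and Stk11 at 10.4 (9.15 to 11.9), 23.4 and 11.6 CPM. Both keratin-high groups thus had more GFP and less Stk11 than keratin-low cells. Among thinned members 152 had a GFP UMI, 29 a Stk11 UMI and 1 both. Over the keratin bins with Hopx under 4, GFP was at 8.40, 30.1, 45.2 and 45.0 CPM for keratin under 5, 10 to 20, 30 to 40 and 50 to 60, and Stk11 at 30.6, 17.9, 6.43 and 13.1 CPM. Cells were not assigned to Restored or NonRestored mice from these transcripts.

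Proliferation transcripts were sparse. At least 3 UMIs over 10 proliferation genes were found in 3.74% of thinned members (27 of 721, interval 2.48 to 5.40), 1.88% of keratin-low cells (1.62 to 2.16) and 1.63% of Hopx-raised cells (0.601 to 3.51), and without thinning in 31.0%, 12.3% and 12.6%. The summed level of the 10 genes was 134 CPM in the members, 121 CPM in keratin-low and 73.8 CPM in Hopx-raised cells, and Mki67 was at 14.3, 14.0 and 5.02 CPM.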

How the data were processed

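Cells from dissected mouse lung tumours were sorted by flow cytometry and sequenced on the 10x v3 droplet platform. The authors deposited 1 matrix of counts (UMIs) of 31055 features in 16017 cells from 6 mice, made with Cell Ranger 3.0.2 on mm10, with a tdTomato and a GFP sequence among the features. The annotation release was not given in the sources used here. Feature IDs were matched to GENCODE M21 for 31011 features (99.9%), and 71 features carried a symbol shared with another feature. Cells held 500 to 125731 UMIs (median 13985).

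No barcodes were in the files read here, so shared barcodes were not counted. Scrublet in scanpy 1.11.5 called 0 of 12183 cells at its automatic threshold and so had not worked, and doublets were kept. UMIs were summed over the cells of a group and divided by the group total (CPM). Ratios were taken with 1 CPM added, over genes at 20 CPM or more in either group, and printed folds without it. Intervals are exact (95%, Poisson for levels, conditional binomial for ratios, Clopper-Pearson for shares) and cover counting error only. The ratio calculation was tested on simulated data. Named were genes of 38 lists, the 15 largest ratios in each direction against keratin-low cells, the 10 against Hopx-raised cells, and a few said to be chosen after their values were seen. The members and lists were chosen with earlier results of these data known. Alternative keratin, Hopx, mitochondrial and level thresholds, scalings and left-out cells were tried. Intervals came from scipy 1.17.1, tables from pandas 2.3.3 and numpy 2.4.6 and plots from matplotlib 3.10.9, all under Python 3.11.15. A few genes and alleles are not reported here.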

Additional observations from a re-analysis of the deposited data

How the results depend on the processing

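No paired analysis was possible because the files read here did not tie cells to mice, and for the same reason no mouse could be left out in turn. The members' share of tdTomato cells was 8.20% with a keratin minimum of 40, 3.65% with 75, 5.13% with a Hopx border of 2, 7.77% with 8, and 7.24% with at most 10% mitochondrial UMIs. Relative to the median gene, 338 genes were over 2-fold higher than in keratin-low cells. With genes at 5 CPM or more, 603 were lower than in keratin-low cells, and 333 were higher and 235 lower than in Hopx-raised cells. With 100 CPM or more, 256 were higher and 111 lower than in keratin-low cells, and 51 higher and 52 lower than in Hopx-raised cells, with 3 ATI markers lower. With 20 CPM in both groups, an alternative chosen after seeing the data, 341 were higher and 139 lower than in keratin-low cells, and 64 and 77 than in Hopx-raised cells, with 3 ATI markers lower. With 10 CPM added, 84 genes were lower than in Hopx-raised cells. The other CPM minimums test more or fewer genes, and for the other settings the cause was not tested.

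Followed here were the ratios of the marker, injury, ATII and ATI lists and of the genes with the largest ratios in either direction. Of 109 of these past 2-fold, 99 kept their sign and 75 stayed past 2-fold under all 17 alternatives. Genes named only from other lists, such as the actin genes, were not in this count. The alternatives with a lower or higher CPM minimum change only which genes are compared, so no ratio could move under them. Another left out the cells with the highest Scrublet scores, although Scrublet had not worked. With a Hopx border of 2 the log2 ratio of Serpinb2 to Hopx-raised cells was -0.036. Without cells with fibroblast, endothelial or immune UMIs, the log2 ratio to keratin-low cells was 0.043 for Mgp, 0.14 for Chil3, 0.15 for Ccl6, 0.024 for Cxcl14, 0.053 for Ctss and 0.18 for Mfap5. Against keratin-low cells with Hopx under 4, an alternative chosen after seeing the data, it was 0.47 for Rtkn2, 0.90 for Spock2 and 0.18 for Sema3a. Depth and the unknown number of tumours limit the genes seen in few cells.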
